A study of Homo sapiens with 12 samples.

Results

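The expression profile of U87 cells, a human glioblastoma cell line, was compared after 72 h with allopregnanolone (3α-THP, 10 nM) and after 72 h with finasteride (F, 100 nM). The comparison used the 3 arrays with 3α-THP and the 3 arrays with F, 6 of the 12 arrays of the series, and every transcript cluster of the deposited table that the platform annotation pairs with at least 1 gene symbol, which was 21214 of 33297 clusters. A transcript cluster is the set of probes that the Affymetrix Human Gene 1.0 ST array summarises as one transcribed locus. 19460 of the tested clusters carried a single gene symbol and 1754 carried several. Arrays were taken by title and clusters by annotation, without a filter on measured values. The comparison itself was chosen with earlier results of these data known.

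The other arrays of the series were 3 with vehicle (V) and 3 with progesterone (P4). The sample characteristics give the vehicle as 0.1% DMSO, and the treatment protocol gives 10%. All 12 cultures were of the same line, were kept before treatment in medium without phenol red and with serum stripped of steroids by charcoal, and were labelled as biological replicates 1 to 3 of each treatment. Values are log2 levels, so a difference of 1.00 is a doubling of level, and differences are given as 3α-THP minus F throughout unless V is named. The doses of the 2 compounds differed, so compound and dose cannot be told apart, and each compound was given at 1 dose only.

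3α-THP is a progesterone metabolite made by 5α-reductase and then by 3α-hydroxysteroid dehydrogenase, and it is best known as a positive modulator of the GABA-A receptor. Finasteride is a synthetic azasteroid that inhibits 5α-reductase, and it is used to block the formation of 5α-reduced steroids such as dihydrotestosterone and 3α-THP itself. The pair therefore sets the end product of the pathway beside an inhibitor of its first enzyme, each given without the other.

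Most markers of the line stood at high level. The mean level of 7 U87 markers, among them fibronectin (FN1), vimentin (VIM) and CD44, lay between 10.70 and 10.89 on the 12 arrays, where the median of all clusters on an array was 6.35 to 6.40. NES (nestin), 1 of the 7, was below that median on every array, between 5.74 and 6.19. Glial markers averaged 5.26 to 5.45, with GFAP, the intermediate filament of astrocytes, at 6.17 over the 12 arrays. Neuronal markers averaged 5.76 to 6.08, immune markers 5.23 to 5.39, epithelial markers 4.87 to 5.11 and endothelial markers 4.51 to 4.78, although SLC1A3, a glial glutamate transporter, at 9.47, SNAP25, a SNARE protein of neurons, at 8.62 and CD68, a lysosomal protein abundant in macrophages, at 10.8 stood above the array median. CD68 was between 10.67 and 11.02 on the 12 arrays, as high as the mean of the U87 markers. No marker of these lists passed the threshold between 3α-THP and F.

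Few genes separated the cells given 3α-THP from those given F. With a threshold of a fold over 1.5 and an unadjusted p under 0.05 in limma, 12 of 21214 clusters passed (0.0566%), 5 higher with 3α-THP (0.0236%) and 7 lower (0.033%). The 4 of them that belong to a single gene were KRTAP5-5, GH1 and DOC2B, higher with 3α-THP, and ARPP19, higher with F. In the same fit 144 clusters (0.679%) passed between 3α-THP and V and 84 (0.396%) between F and V, and these 2 contrasts share the V arrays. The calls against V rest on an unadjusted p as well. No cluster reached an adjusted p under 0.05 between 3α-THP and F, where the smallest adjusted p of limma was 1.00, and 485 clusters had an unadjusted p under 0.05.

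Arrays of equal replicate number deviated together, so the fit was also run with the replicate number as a block, which leaves each difference as it is and changes its error. The block raised the clusters past the threshold to 14 (0.066%), the 12 above together with CRACR2A and HMMR, both higher with 3α-THP. It raised those at an unadjusted p under 0.05 from 485 to 1064, and the smallest adjusted p of limma was then 0.917. Without the block 259 clusters (1.22%) were higher with 3α-THP at an unadjusted p under 0.05 and 226 (1.07%) lower, and with it 520 (2.45%) were higher and 544 (2.56%) lower.

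The 2 profiles lay close over the whole array. The median absolute difference was 0.066, a fold of 1.05, and the 99th percentile was 0.33, a fold of 1.26. The 95% interval of the difference lay inside a fold of 1.5 in both directions for 20097 clusters (94.7%), and for 20821 (98.1%) with the block. The median of all differences was -0.01, and 46.5% of clusters were higher with 3α-THP. The 3 arrays of one treatment did not overlap the 3 of the other in 1400 clusters (6.6%), 619 with 3α-THP above and 781 below, and 11 of the 12 clusters past the threshold were among them.

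**Figure D1:**
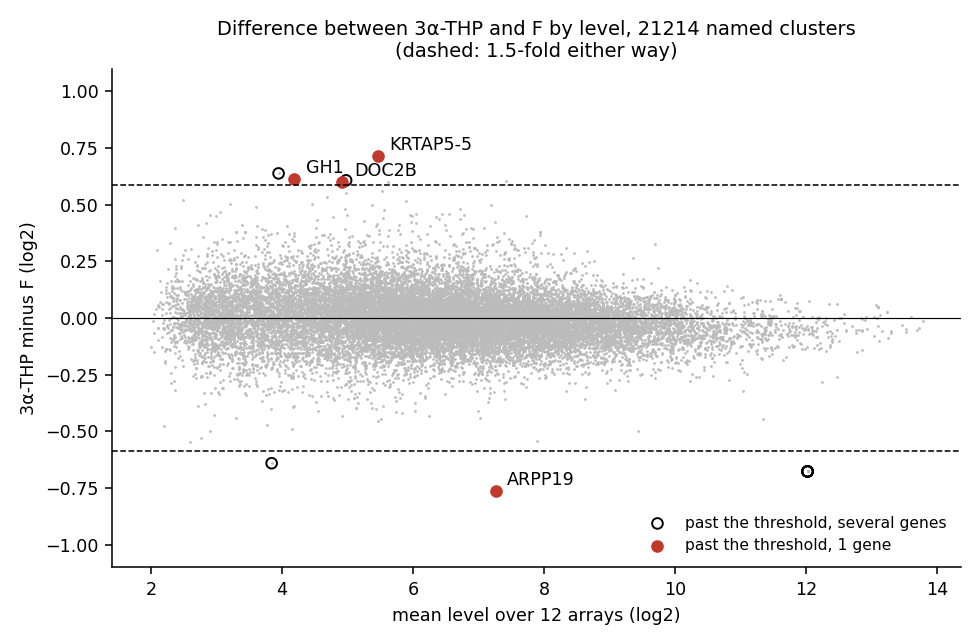
Difference between 3α-THP and F (y axis, log2) against the mean level over 12 arrays (x axis, log2) for the 21214 named clusters. The 12 clusters past the threshold are ringed where they carry several gene symbols and filled where they carry 1. The 5 small nucleolar RNA copies fall on one ring near a level of 12, and 3 of the 4 single-gene clusters lie below a level of 6.

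KRTAP5-5 had the largest difference upward of any named cluster. The gene encodes a keratin-associated protein, a structural protein of the hair shaft. Its levels were 5.66, 6.06 and 5.82 with 3α-THP and 5.14, 5.06 and 5.19 with F, against 5.73, 5.55 and 5.50 with V. The 3α-THP arrays lay above all 3 F arrays and overlapped V, whereas every F array lay below V. So did every P4 array, at 5.04, 5.34 and 5.43. The difference was 0.71 (SE 0.12), a fold of 1.64, with an unadjusted p of 6.02e-05 and an adjusted p of 1.00 in limma. Against V the level was 0.25 higher with 3α-THP (limma, unadjusted p = 0.0568) and 0.46 lower with F (unadjusted p = 0.00241).

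GH1 encodes pituitary growth hormone. Its levels were 4.03, 4.43 and 4.62 with 3α-THP, 3.43, 3.92 and 3.89 with F and 4.25, 4.53 and 4.09 with V. Again the F arrays stood below both other treatments and 3α-THP overlapped V. The difference was 0.61 (SE 0.17), a fold of 1.53 (limma, unadjusted p = 0.00288, adjusted p = 1.00), and it fell short of the fold or the p when 3α-THP replicate 2, 3α-THP replicate 3 or F replicate 1 was left out. The neighbouring genes of the growth hormone and placental lactogen locus did not share it, with differences of -0.08 for GH2, 0.03 for CSHL1 and -0.04 for CSH2, each with a 95% interval inside a fold of 1.5. GH1, with a mean of 4.18 over 12 arrays, was below the array median of 6.35 to 6.40 on every array.

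DOC2B encodes a calcium sensor of regulated exocytosis and had 2 clusters. The cluster that passed stood at 4.96, 5.53 and 4.79 with 3α-THP, at 4.70, 4.53 and 4.25 with F and at 5.53, 5.16 and 4.96 with V. The treatments did not overlap, although the lowest array with 3α-THP, 4.79, was close to the highest with F, 4.70. The difference was 0.60 (SE 0.22), a fold of 1.51 (limma, unadjusted p = 0.018, adjusted p = 1.00). The other DOC2B cluster, at a mean level of 6.28, differed by 0.04 (95% interval -0.38 to 0.45). The first cluster missed the threshold without 3α-THP replicate 2 or F replicate 3. In the platform's numbering, which follows genome order, the 10 nearest clusters of each are on chromosome 17. The cluster that passed is numbered between RNU2-1 and GCGR, and the other between METRNL and RPH3AL. Where the probes bind was not tested. Of 36 measured calcium sensors and SNARE genes of exocytosis none passed, and 35 had an interval inside a fold of 1.5.

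ARPP19 had the largest difference downward. It encodes a phosphoprotein that, once phosphorylated by the kinase MASTL, inhibits the phosphatase PP2A-B55 and so permits entry into mitosis. The cluster that passed stood at 6.86, 7.16 and 6.58 with 3α-THP, at 7.51, 7.82 and 7.56 with F and at 6.86, 7.70 and 7.54 with V. It was the single tested cluster that differed by more than 1.5-fold with the same sign in all 3 pairs of equal replicate number, by -0.65, -0.66 and -0.98. The mean difference was -0.76 (SE 0.21), a fold of 1.70 in favour of F (limma, unadjusted p = 0.0034, adjusted p = 1.00).

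The second ARPP19 cluster, at 8.76, 8.69 and 8.94 with 3α-THP and 8.84, 8.82 and 8.93 with F, differed by -0.07 (95% interval -0.26 to 0.12). The platform numbers its clusters in genome order, and the 2 clusters sit in different places in that order. All 10 nearest numbered clusters of the one without a difference are on chromosome 15, where ARPP19 lies. All 10 of the one with the difference are on chromosome 5, between CNOT6 and BTNL3, where the RefSeq annotation of GRCh38.p14 lists the pseudogene ARPP19P1. Of 22 measured genes of the ARPP19, ENSA, MASTL and PP2A-B55 pathway, each taken by its brightest cluster, none passed the threshold, and the median difference was 0.07.

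CRACR2A and HMMR passed with the block and not in the fit of 12 arrays without it. CRACR2A encodes a calcium-sensing protein that binds the store-operated channel ORAI1. One of its 3 clusters stood at 4.78, 4.03 and 4.54 with 3α-THP and at 3.72, 3.76 and 3.96 with F, a difference of 0.63 (SE 0.33, unadjusted p = 0.0751 without the block and 0.029 with it in limma), while the other CRACR2A clusters differed by 0.07 and -0.14. V spanned 3.49 to 4.66 for the first and overlapped both. Without the block the first also passed on the 3α-THP and F arrays alone (limma, unadjusted p = 0.00739), with array weights (0.0373), without V replicate 2 (0.0453), without P4 replicate 3 (0.0288), without 3α-THP replicate 2 (0.0312) and without replicate number 2 (0.0265).

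**Figure D2:**
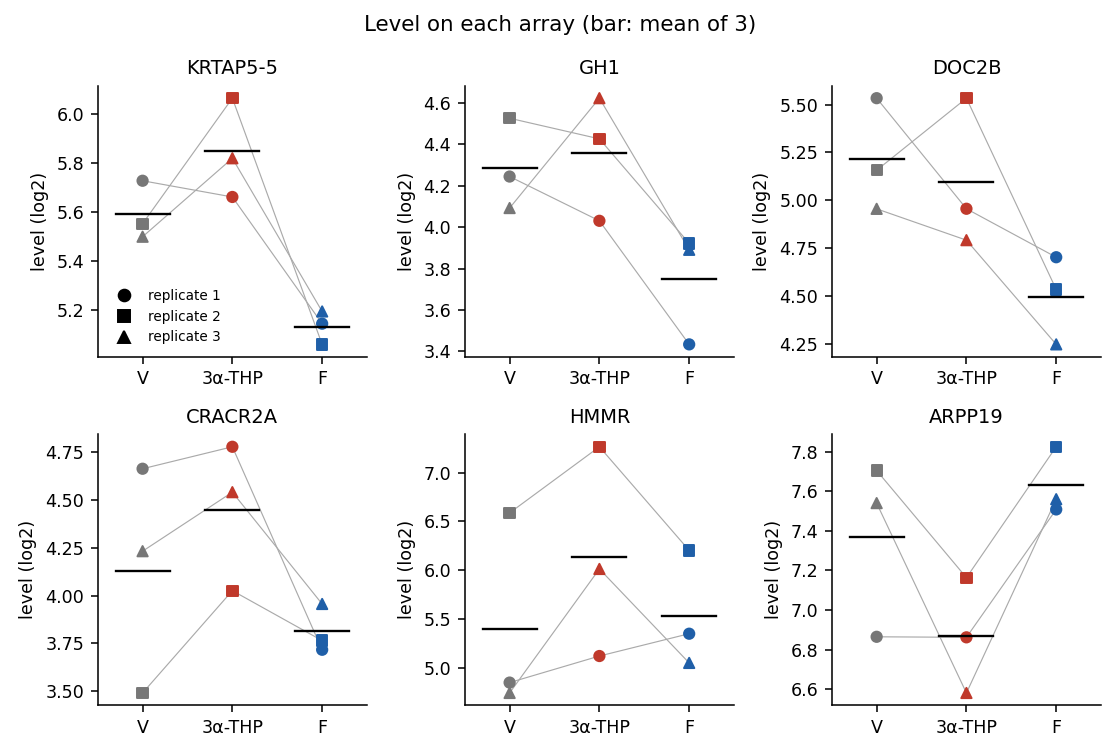
Levels (y axis, log2) of the clusters of 6 genes that passed with or without the block, on each array of V, 3α-THP and F (x axis). Points are arrays, the marker gives the replicate number, thin lines join arrays of equal number and bars are means of 3. F lies below V in KRTAP5-5, GH1 and DOC2B, and in HMMR replicate 2 is the highest of each treatment.

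The remaining 8 clusters past the threshold carry several gene symbols each and are not named. Of these, 5 are copies with equal values that belong to 1 family of small nucleolar RNA genes, so they are 1 measurement. They stood at 12.04, 11.97 and 10.44 with 3α-THP and at 12.16, 12.17 and 12.15 with F, a difference of -0.68 (SE 0.30, unadjusted p = 0.0434 in limma). It became -0.15 without 3α-THP replicate 3. The call was lost there, without any single V, P4 or F array, on the 3α-THP and F arrays alone and under the methods' analysis of variance. The others were a cluster shared by a small nucleolar RNA host gene and a small Cajal body RNA (-0.64), one shared by 2 microRNA genes (0.61) and one shared by several cancer-testis antigen genes (0.64). Among 115 clusters of C/D box small nucleolar RNAs with a single symbol none passed and the median difference was -0.02, and among 61 of the H/ACA box class none passed and the median was -0.04.

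Below the threshold in size, the largest differences without overlap between the arrays were in dim clusters. Upward these were DLEU2L, a non-coding RNA gene (0.52), and OPN1LW, the long-wave cone opsin (0.50), after KRTAP5-5, GH1, DOC2B and CRACR2A. Downward, after ARPP19, they were LOC645188 (-0.55), SUMO1P3 (-0.53), PRDM9, a meiotic histone methyltransferase (-0.50), ZNF578 (-0.48) and N4BP2L1 (-0.47). The second, brighter cluster of N4BP2L1, at a mean level of 4.73, differed by 0.09 (95% interval -0.22 to 0.39). The mean levels of these 7 clusters ran from 2.20 for ZNF578 to 3.78 for N4BP2L1. Of the 12 clusters past the threshold, 6 had a mean under 6, against 42.9% of all clusters. The small nucleolar RNA copies, at a mean of 12.02, make up 5 of the 12. With equal clusters counted once 8 passed, the same 6 among them. With all clusters under 6 left out and the fit repeated, 1 cluster, that of ARPP19, passed. The small nucleolar RNA copies then missed the p, at an unadjusted p = 0.0501 in limma.

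Many of the genes with a higher mean level than V under both compounds showed no resolved difference between the compounds. The 10 genes that the study chose for RT-qPCR were picked for their rise against V on these same arrays, which is no independent evidence of that direction. All 10 passed against V with 3α-THP and 8 with F, with medians of 0.85 and 0.77, and all 10 had a positive difference between the compounds, with a median of 0.11 and none at an unadjusted p under 0.05. ESF1, a nucleolar protein of ribosome biogenesis, stood at 6.37, 6.92 and 6.82 with 3α-THP, at 6.20, 6.01 and 6.64 with F and at 5.22, 5.89 and 5.24 with V. The compounds overlapped with each other and both lay above V, and the difference was 0.42 (95% interval -0.12 to 0.96). Against V the adjusted p of ESF1 in limma was 0.376 with 3α-THP and 0.911 with F.

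The other RT-qPCR genes differed less. RIF1, a regulator of replication timing, differed by 0.27 (-0.24 to 0.78) and TPR, a nuclear pore basket protein, by 0.24 (-0.31 to 0.78), both with intervals that reach past a fold of 1.5. PCM1 of the centriolar satellites differed by 0.10, REV3L of the translesion polymerase by 0.15, RAD50 of the break repair complex by 0.12, DYNC2H1 of ciliary transport by 0.09 and CCDC91 of Golgi sorting by 0.08. In 6 of the 10 genes the 95% interval lay inside a fold of 1.5, and in the other 4 these arrays do not bound the difference that tightly. Within replicate numbers the median over the 10 genes was -0.09, 0.46 and 0.03.

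Replicate 2 with F stood apart in several of these genes. TPR was at 8.47, 7.65 and 8.48 with F against 7.13, 7.74 and 7.06 with V, and RIF1 at 8.28, 7.67 and 8.44 against 7.11, 7.81 and 7.04, so in that replicate number F did not lie above V. With 3α-THP both genes lay above V in all 3 numbers.

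Genes outside that list with a higher mean level than V under both compounds gave values of like size. The genes named here were picked from earlier results of these data for their difference from V, which is no independent evidence of it. CCDC88A, an actin-binding protein of migrating cells, was 1.36 above V with 3α-THP and 1.07 with F, and the difference between compounds was 0.29 (-0.36 to 0.94). EIF5B, a factor of ribosomal subunit joining, was 1.23 and 0.94 above V and differed by 0.29. GCC2, a golgin, was 1.15 and 1.09 above V and differed by 0.06, and EEA1, an early endosome tether, differed by 0.09 after 1.17 and 1.08. ATRX, a chromatin remodeler, was 1.05 and 0.88 above V and differed by 0.17. The distance of F from V lay in replicates 1 and 3 for some of them, since F replicate 2 was at 7.36 for CCDC88A, 7.03 for EEA1 and 7.67 for ATRX, where V replicate 2 was at 7.36, 7.07 and 7.78. Of the genes below V, BST2, an interferon-induced restriction factor, differed from V by -0.69 with 3α-THP and -0.56 with F, and LIPK, a lipase, by -0.38 and -0.66.

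**Figure D3:**
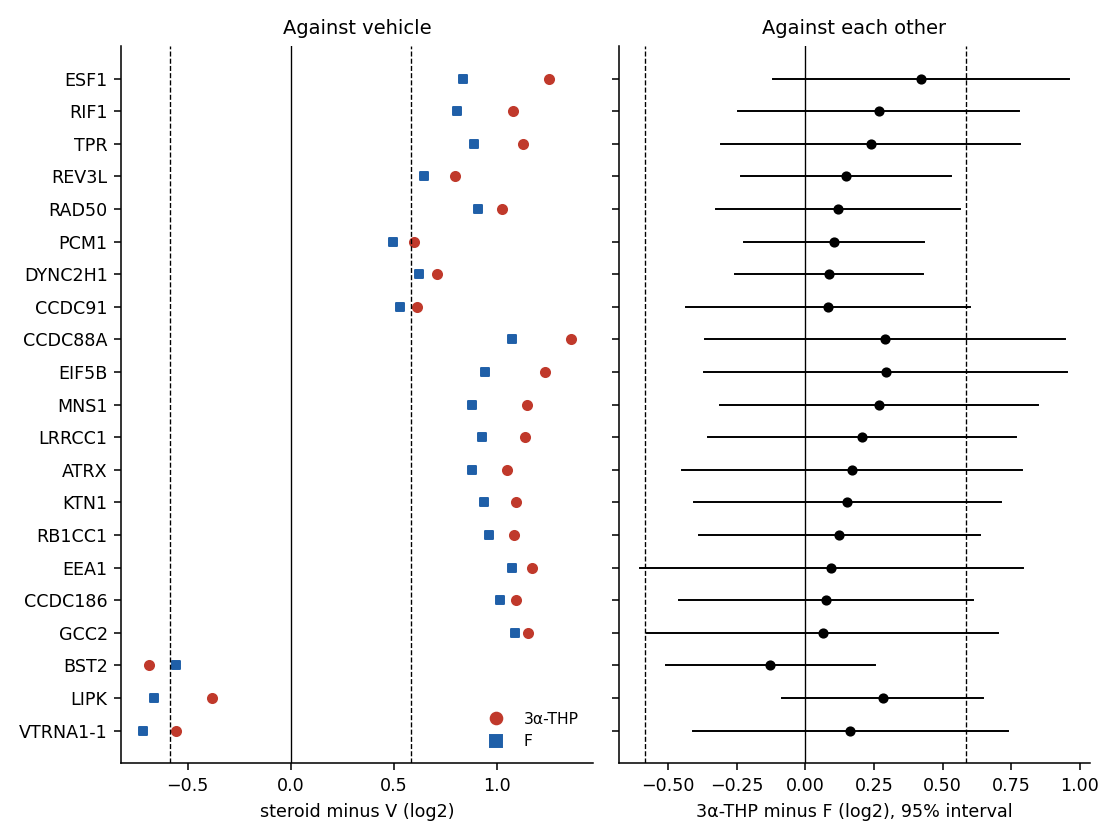
Left, log2 difference from V (x axis) of 21 genes with 3α-THP (circles) and with F (squares), which share the V arrays. Right, the difference between 3α-THP and F with its 95% interval (limma, 3 arrays each). Dashed lines mark a fold of 1.5, and every interval on the right spans 0.

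The genes of mitosis were the group with the largest shift between the compounds, and it varied with the replicate number. Genes of the G2 and M phases, which encode mitotic kinases, cyclins, kinesins and kinetochore proteins, peak together as cells prepare to divide, and their summed level in a culture follows how many cells are dividing. All 59 measured members had a positive mean difference, with a median of 0.25 against -0.01 over all clusters, where 46.5% were positive. None passed the threshold or had an unadjusted p under 0.05 without the block. With it HMMR passed, and 15 members (25.4%, against 2.45% of all clusters) had an unadjusted p under 0.05, all higher with 3α-THP and none at an adjusted p under 0.05 in limma.

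The mean level of the 59 genes was 6.45, 7.98 and 7.09 on 3α-THP replicates 1, 2 and 3, 6.62, 7.35 and 6.77 on those with F and 6.31, 7.50 and 6.54 on those with V. The treatments overlapped, and replicate 2 was the highest of each. In pairs of equal number the median difference was -0.18, 0.57 and 0.33, with 11, 59 and 59 of 59 members positive. Without 3α-THP replicate 2 the median turned to -0.13, with 13 members positive, and without 3α-THP replicate 1 it was 0.62. Against V the median was 0.30 with 3α-THP and 0.04 with F. In these bulk cultures fewer dividing cells and less of these RNAs per cell cannot be told apart, and the part of the culture's growth state in the values was not tested.

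HMMR, a microtubule-binding receptor for hyaluronan at the mitotic spindle, stood at 5.12, 7.26 and 6.01 with 3α-THP, at 5.35, 6.20 and 5.05 with F and at 4.85, 6.59 and 4.74 with V. The spread between replicate numbers was wider than that between treatments. The difference was 0.60 (SE 0.56), with an unadjusted p of 0.309 without the block and 0.0161 with it in limma, and the pairs gave -0.23, 1.06 and 0.96. With the replicate number as a random term in limma its unadjusted p was 0.15 (SE 0.39), and HMMR did not pass. KIF14, a kinesin of cytokinesis, stood at 5.34, 7.05 and 5.91 with 3α-THP and at 5.45, 5.85 and 5.32 with F, a difference of 0.56 (SE 0.43). KIF20B, another kinesin of cytokinesis, differed by 0.51 and SGO2, a protector of centromeric cohesion, by 0.43.

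CENPF, a kinetochore protein, stood at 7.01, 9.42 and 8.35 with 3α-THP and at 7.55, 7.61 and 7.81 with F, a difference of 0.60 (-0.62 to 1.83). ASPM of the spindle pole differed by 0.48, CENPE, a kinetochore motor, by 0.36 and KIF18A, a motor of chromosome alignment, by 0.29. The mitotic regulators BUB1B (0.46), CCNB1 (0.40) and CDK1 (0.39), which were singled out after their values were seen, each had an unadjusted p under 0.05 with the block. At the lower end ESPL1, the separase, and INCENP of the passenger complex differed by 0.02 each. In 3 of the 59 genes the 95% interval lay inside a fold of 1.5, so a difference of that size was not bounded for the remainder.

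**Figure D4:**
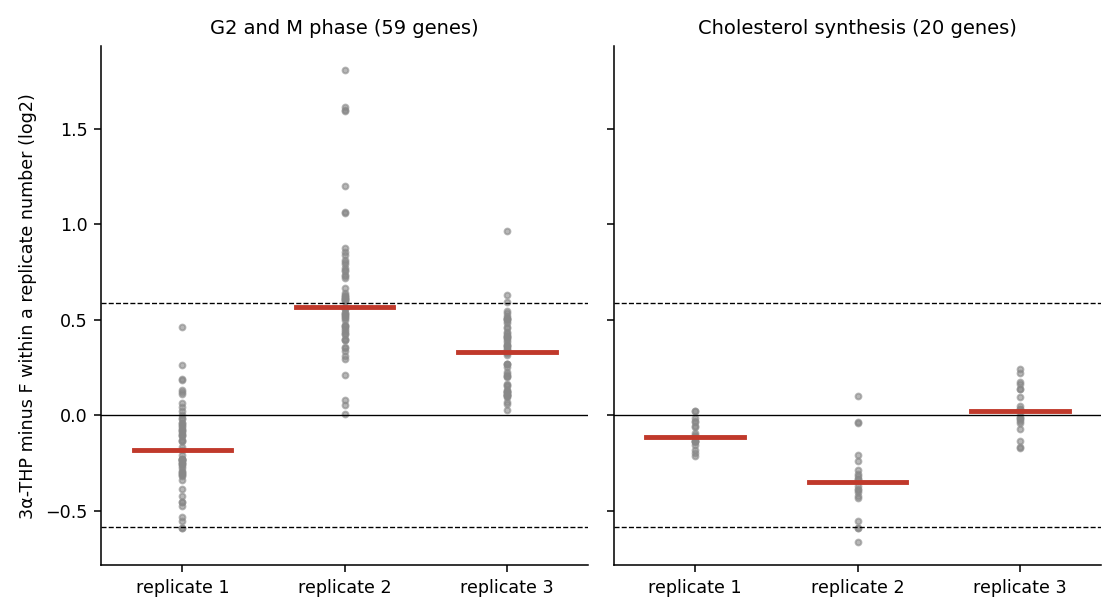
Difference between 3α-THP and F (y axis, log2) within each replicate number (x axis) for 59 G2 and M phase genes and 20 cholesterol synthesis genes. Points are genes, red bars are medians and dashed lines a fold of 1.5. The mitotic genes lie mostly below 0 in replicate 1 and above 0 in replicates 2 and 3, and the cholesterol genes lie lowest in replicate 2.

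Promoter sequences are shown for HMMR, which passed with the block, and for KIF14 and KIF20B. Without the block these kinesins had, with SGO2, the smallest p of the list, at an unadjusted 0.218 and 0.258 in limma. With the block KIF14 had 0.0123 and KIF20B 0.103, so KIF20B was not among the 15 members under 0.05. Each run is the 250 bases before the annotated start in RefSeq, build GRCh38.p14, 5′ to 3′ on the strand of the gene. Capitals mark the letters TTTGAA, the cell cycle homology region through which cell cycle repressor complexes act, and CCAAT, the box bound by NF-Y, on either strand.
HMMR, chr5:163460382-163460631, plus strand: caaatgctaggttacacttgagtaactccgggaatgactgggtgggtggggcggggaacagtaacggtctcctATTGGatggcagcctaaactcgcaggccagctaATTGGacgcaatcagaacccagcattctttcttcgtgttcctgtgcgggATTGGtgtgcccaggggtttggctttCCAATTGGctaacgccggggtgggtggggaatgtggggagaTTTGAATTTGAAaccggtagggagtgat
KIF14, chr1:200620752-200621001, minus strand: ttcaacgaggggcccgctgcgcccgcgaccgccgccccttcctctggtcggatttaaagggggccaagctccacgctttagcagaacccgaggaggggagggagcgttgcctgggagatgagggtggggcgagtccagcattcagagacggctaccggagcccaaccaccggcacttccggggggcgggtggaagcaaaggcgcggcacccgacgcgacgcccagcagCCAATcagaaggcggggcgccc
KIF20B, chr10:89701340-89701589, plus strand: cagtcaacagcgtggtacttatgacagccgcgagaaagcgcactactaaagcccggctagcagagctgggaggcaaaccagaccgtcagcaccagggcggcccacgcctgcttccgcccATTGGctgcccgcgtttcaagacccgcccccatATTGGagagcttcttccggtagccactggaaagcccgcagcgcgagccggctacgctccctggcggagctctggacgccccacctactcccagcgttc
HMMR held 2 adjacent copies of TTTGAA near its start and 5 matches to CCAAT, of which a pair overlap on opposite strands. KIF14 held 1 CCAAT and KIF20B 2, and neither held TTTGAA in this window. TTTGAA was found for 27 of the 52 G2 and M phase genes with a window (51.9%) and for 16.1% of the 27305 genes in the RefSeq table, and CCAAT for 41 of 52 (78.8%) against 37.0%. Of 46 genes of S phase 2 held TTTGAA (4.35%) and 29 held CCAAT (63.0%).

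The genes of S phase and DNA replication differed less than those of mitosis. Of 55 measured 40 were higher with 3α-THP, with a median of 0.09 and none past the threshold, and the pair medians were -0.11, 0.26 and 0.10. With the block 4 (7.27%, against 2.45% of all clusters higher) had an unadjusted p under 0.05, among them CCNE1, the cyclin of the G1 to S transition, at 6.26, 6.91 and 6.61 with 3α-THP and 6.02, 6.82 and 6.23 with F (difference 0.24, unadjusted p = 0.0142 with the block in limma). The median turned negative without 3α-THP replicate 2 (-0.16), without F replicate 1 (-0.02) and without replicate number 2 (-0.004).

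Genes of cholesterol synthesis had lower mean levels with 3α-THP than with F, by less than the threshold. They are driven together by the transcription factor SREBP-2 when the sterol content of the endoplasmic reticulum is low. Of 20 measured members 17 had a negative difference, with a median of -0.19, and none passed the threshold. Without the block 2 (FDPS and SREBF2) had an unadjusted p under 0.05, and with it 5 had (25%, against 2.56% of all clusters lower), none at an adjusted p under 0.05 in limma. The median against V was -0.19 with 3α-THP and -0.04 with F. The pair medians were -0.11, -0.35 and 0.02, so replicate 3 did not share the direction.

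FDPS, which makes farnesyl diphosphate, stood at 7.05, 7.06 and 7.08 with 3α-THP, at 7.18, 7.43 and 7.25 with F and at 7.30, 7.57 and 7.34 with V. All 3α-THP arrays lay below the others, and the difference was -0.23 (SE 0.09, limma, unadjusted p = 0.0322). SREBF2, the gene of SREBP-2, stood at 8.95, 8.68 and 8.92 with 3α-THP, at 9.05, 9.11 and 9.06 with F and at 9.08, 9.03 and 9.13 with V. The groups again did not overlap, with a difference of -0.22 (SE 0.08, unadjusted p = 0.02 in limma). DHCR7, the last enzyme of the pathway, differed by -0.25 (-0.55 to 0.04), and its level with 3α-THP was 9.18 in replicate 2 against 9.78 with F. In 18 of the 20 genes the interval lay inside a fold of 1.5.

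The promoters of FDPS and SREBF2 are shown because they were the members without overlap between the arrays. The window, build and capitals are as above, with TCACNCCAC, the letters of the sterol element of the LDL receptor gene, searched on both strands as well.
FDPS, chr1:155308616-155308865, plus strand: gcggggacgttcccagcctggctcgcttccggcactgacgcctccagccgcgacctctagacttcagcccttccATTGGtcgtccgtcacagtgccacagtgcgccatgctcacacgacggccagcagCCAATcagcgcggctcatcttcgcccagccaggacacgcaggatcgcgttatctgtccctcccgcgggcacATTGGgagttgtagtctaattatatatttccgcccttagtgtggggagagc
SREBF2, chr22:41832855-41833104, plus strand: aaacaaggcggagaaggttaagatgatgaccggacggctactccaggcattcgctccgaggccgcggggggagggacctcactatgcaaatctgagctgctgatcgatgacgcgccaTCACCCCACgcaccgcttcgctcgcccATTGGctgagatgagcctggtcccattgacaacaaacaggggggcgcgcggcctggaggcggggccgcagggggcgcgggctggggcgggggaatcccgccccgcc
FDPS held 3 matches to CCAAT and no TCACNCCAC. SREBF2 held 1 of each. TCACNCCAC was found for 1 of the 19 cholesterol genes with a window (5.26%) and for 1.09% of all genes, and CCAAT for 15 of 19 (78.9%).

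Keratin-associated protein genes were measured at 68 single-gene clusters with a median level of 5.44, below the array median. 52 of them (76.5%, against 46.5% of all clusters) had a positive difference, with a median of 0.07, and 1, KRTAP5-5, passed the threshold. An unadjusted p under 0.05 was found for 6 of 68, all higher with 3α-THP, against 1.22% of all clusters, including KRTAP5-9 (0.28) and KRTAP19-7 (0.25). KRTAP5-9 stood at 5.95, 5.82 and 5.77 with 3α-THP, at 5.66, 5.62 and 5.42 with F and at 6.02, 5.74 and 5.76 with V. As with KRTAP5-5, every F array lay below V. With P4 KRTAP5-9 stood at 5.75, 5.79 and 5.80 and overlapped V, whereas KRTAP5-5 with P4 lay below V too. The pair medians of the family were -0.02, 0.11 and 0.16, and 67 of 68 intervals lay inside a fold of 1.5. Members of the family are close in sequence, and whether probes of one bind RNA of another was not tested.

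Genes of neurosteroid enzymes, steroid receptors and GABA-A receptor subunits differed by little, as far as their intervals show. All 24 measured genes of 5α-reduction and neurosteroid synthesis had a 95% interval inside a fold of 1.5, among them SRD5A1 (0.03) and SRD5A2 (0.08), the 5α-reductases that finasteride inhibits. The median level of the 24 was 4.86, below the array median, and signal over background was not measured. AKR1C2, a 3α-hydroxysteroid dehydrogenase, differed by 0.07 and AKR1C3 by -0.15. HSD17B6, an enzyme that oxidises 3α-hydroxysteroids, was the single member at an unadjusted p under 0.05, with 3.65, 3.71 and 3.80 with 3α-THP and 3.60, 3.39 and 3.49 with F (0.23, unadjusted p = 0.0364 in limma).

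Of the steroid receptors all 16 measured had an interval inside a fold of 1.5, including the progesterone receptor PGR (0.01), at a mean level of 3.97, and the glucocorticoid receptor NR3C1 (-0.10), at 9.54. PGRMC2, a haem-binding membrane protein of the progesterone receptor component family, stood at 9.07, 8.96 and 9.06 with 3α-THP and at 9.23, 9.25 and 9.18 with F, without overlap (-0.19, unadjusted p = 0.0324 in limma). PAQR7, the membrane progestin receptor alpha, differed by -0.22 (-0.58 to 0.15). All 15 measured GABA-A receptor subunits had an interval inside a fold of 1.5, including GABRA3 (-0.06) and GABRQ (-0.02). Their median level was 3.96, where the median of all clusters on an array was 6.35 to 6.40. Signal over background was not measured, so a narrow interval at such a level does not show that the RNA is present.

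Target genes of nuclear receptors that bind steroids were close as well. All 13 measured PXR and CAR targets had an interval inside a fold of 1.5, at a median level of 3.74, below the array median. CYP2C8 (0.25, unadjusted p = 0.0184) and CYP3A43 (0.23, unadjusted p = 0.0283 in limma), both drug-metabolising cytochromes, were higher with 3α-THP at mean levels of 3.27 and 3.03. All 15 androgen response genes had an interval inside a fold of 1.5 with a median of 0.02 and none at an unadjusted p under 0.05. Of 22 progestin and glucocorticoid response genes 20 had, with a median of -0.03. Among 21 CREB and CEBP factors and co-activators DDIT3, the stress factor CHOP, differed by 0.30 with pairs of 0.02, 0.49 and 0.39 (unadjusted p = 0.0267 with the block in limma), and the median was -0.02.

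Among 28 growth factors and receptor kinases of glioblastoma none passed the threshold or had an unadjusted p under 0.05, and the median was -0.02. With the block 6 had (21.4%, against 2.56% of all clusters lower), each lower with 3α-THP. FGF1, acidic fibroblast growth factor, stood at 6.20, 5.12 and 5.60 with 3α-THP and at 6.11, 5.88 and 6.17 with F (-0.41, unadjusted p = 0.0182 with the block in limma), and ERBB2 differed by -0.17. FGF1 was higher with 3α-THP in pair 1, by 0.09, and lower in pairs 2 and 3, by -0.75 and -0.57. Of 30 interferon-stimulated genes 8 were higher (26.7%, against 46.5% of all clusters) and 22 lower, with a median of -0.04. The pair medians were 0.04, -0.15 and -0.10, so replicate 1 did not share the direction. ISG20, an exonuclease (-0.25), and OAS1, an oligoadenylate synthetase (-0.21), had an unadjusted p under 0.05, against 1.07% of all clusters lower. ISG20 was lower in all 3 pairs, and OAS1 was higher in pair 1, by 0.08.

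Groups of structure, transport, translation and signalling differed between compounds by small medians, with none of their members past the threshold. The median was 0.09 for 29 nuclear pore and transport genes, of which 28 were positive, 0.07 for 32 genes of the centrosome and its satellites, 0.06 for 29 of condensin, cohesin and DNA repair and 0.04 for 25 chromatin remodelers. It was -0.002 for 27 golgins and endosome tethers, 0.01 for 33 translation initiation factors and -0.04 for 96 clusters of cytosolic ribosomal proteins. For 15 connexins it was -0.04 and for 13 genes of the growth hormone receptor pathway -0.01. Of 5 vault RNAs and proteins, with a median of -0.09, MVP, the major vault protein, differed by -0.20 (unadjusted p = 0.0319 in limma).

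**Figure D5:**
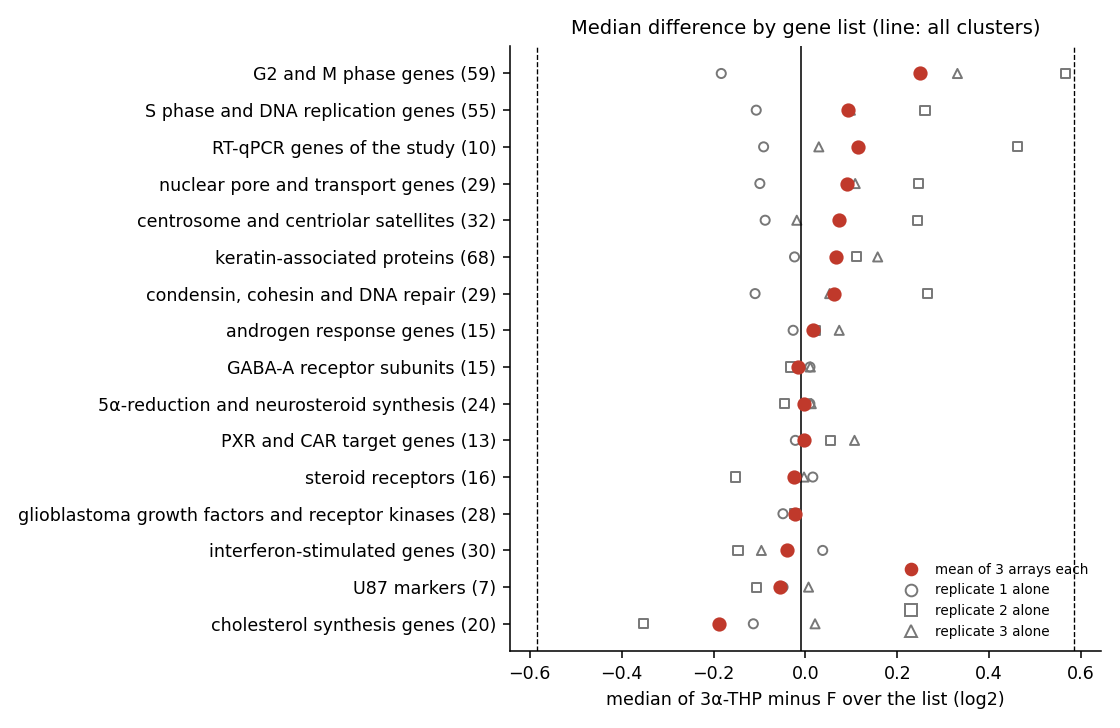
Median difference between 3α-THP and F (x axis, log2) for 16 gene lists (y axis, with the number of genes measured). Filled circles use the means of 3 arrays, open symbols each replicate number alone, the solid line is the median of all clusters and dashed lines a fold of 1.5. The lists at the top, from G2 and M phase to centrosome, take their highest value in replicate 2 and lie below 0 in replicate 1.

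The replicate numbers did not give one pattern of differences over the array. The number of clusters that differed by more than 1.5-fold was 87 in pair 1, 335 in pair 2 and 129 in pair 3, and 1 did so with the same sign in all 3. The sign was the same in all 3 pairs for 27.1% of clusters. Across the 21214 clusters, which are not independent, the differences of pairs 1 and 2 had a Pearson correlation of -0.05, those of pairs 1 and 3 of -0.02 and those of pairs 2 and 3 of 0.16, each pair being 2 arrays.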

How the data were processed

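The authors amplified total RNA of 12 U87 samples, labelled it with biotin and hybridised the product to Affymetrix Human Gene 1.0 ST arrays, and the deposited table holds log2 levels per transcript cluster. Per the labels the values came from Affymetrix Expression Console 1.4, and the study's methods name quantile normalization. No counts exist, so the number of arrays limits the precision. Names came from the platform annotation of the clusters, with 19429 symbols updated through Entrez identifiers in the RefSeq table of GRCh38.p14, and 12083 clusters without a symbol were left out. A gene of a list was taken at its brightest single-gene cluster, and clusters with several symbols were not named. 703 clusters share equal values with another.

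One mean per treatment was fitted over the 12 arrays with limma 3.58.1 (R 4.3.3, lmFit and eBayes, prior degrees of freedom 4.73), and p-values were adjusted by Benjamini-Hochberg over 21214 clusters. P4 arrays entered only the estimate of spread. The threshold, a fold over 1.5 and an unadjusted p under 0.05, is that of the study's methods. 3 arrays against 3 allow no exact permutation p under 0.1, so no such test was run on single genes. Intervals are 95% intervals of the fit.

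The labels call the arrays biological replicates and do not say what an equal number shares. Deviations from the treatment means correlated at 0.13 to 0.63 in all 18 pairs of equal replicate number, so the numbers were taken to pair the arrays. The 36 pairs of other number and other treatment had a median of -0.25. Deviations of the 3 arrays of a treatment from their mean sum to 0. Where pairs of equal number lie above 0, those other pairs therefore tend to lie below 0, so their median is not a separate observation. The ranges overlapped, since V replicate 3 correlated at 0.23 with 3α-THP replicate 1 and at 0.20 with 3α-THP replicate 3. The block was a fixed term for the number. Genes were named by rules. These took those past the threshold with or without the block, the 6 largest differences without overlap in each direction and the 10 RT-qPCR genes. They also took the 3 smallest p without the block of each of 36 gene lists, and the 5 largest that moved opposite ways against V. A last rule took genes that earlier results of these data name for either compound against V. The values of 1 list and of 2 of the RT-qPCR genes are not reported here. The comparison, lists and rules were chosen with earlier results of these data known. Normalizations, filters, variance priors, the methods' analysis of variance and the omission of arrays were alternatives. The fit was tested on simulated data.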

Additional observations from a re-analysis of the deposited data

Results flagged for a closer look

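Against V, 166 of 19460 single-gene clusters moved one way in all 3 pairs of equal replicate number with 3α-THP and the opposite way in all 3 with F. Both moves share the V arrays, and their opposite directions were not tested. The named genes among them are given with the direct difference between the compounds. They were picked on these same arrays, by their opposite moves and by the size or p of their difference. Their unadjusted p is therefore no independent evidence, and none had an adjusted p under 0.05 in limma. ARPP19, at the cluster numbered among chromosome 5 genes, had a direct difference of -0.762 (3α-THP minus F, log2, limma, unadjusted p = 0.0034), DLEU2L of 0.519 (limma, unadjusted p = 0.00106) and USP32P1 of 0.407 (limma, unadjusted p = 0.03). EHF, an epithelial ETS factor, had -0.401 (limma, unadjusted p = 0.014), RAB43, a GTPase of Golgi traffic, -0.400 (limma, unadjusted p = 0.00277) and SNORA38B 0.371 (limma, unadjusted p = 0.0083). CYP2C8 had 0.254 (limma, unadjusted p = 0.0184) and ISG20 -0.252 (limma, unadjusted p = 0.00996). CPLX1, a complexin of synaptic release, had 0.176 (limma, unadjusted p = 0.153), GOLGA2, a cis-Golgi matrix protein, -0.136 (limma, unadjusted p = 0.216) and STEAP4, a metalloreductase, 0.117 (limma, unadjusted p = 0.296).

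In ARPP19 the moves against V were -0.003, -0.54 and -0.96 with 3α-THP and 0.64, 0.12 and 0.02 with F, so the opposite sign rested in pair 1 of 3α-THP and pair 3 of F on values close to 0. RAB43 moved by -0.28, -0.32 and -0.25 with 3α-THP and by 0.27, 0.02 and 0.06 with F. ISG20 moved by -0.06, -0.12 and -0.11 with 3α-THP and by 0.10, 0.27 and 0.10 with F. Values close to 0 also stood with 3α-THP in USP32P1 (0.004, pair 1), CPLX1 (0.0006, pair 1) and CYP2C8 (0.001, pair 2). With F they stood in EHF (0.005, pair 1), STEAP4 (-0.0085, pair 1), SNORA38B (-0.007, pair 2) and GOLGA2 (0.009, pair 3). In DLEU2L the smallest move was 0.17, in pair 1 of 3α-THP.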

How the results depend on the processing

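No alternative gave a cluster with an adjusted p under 0.05 in limma, the smallest being 0.0606 with unnamed clusters included. The 12 clusters past the threshold became 5 with the methods' analysis of variance, 7 with quantile normalization and 7 with cyclic loess. They became 7 with an intensity trend and robust prior and 1 with dim clusters left out. With equal clusters counted once 8 passed, and with 1 cluster per gene 2 did. There were 167 with all clusters and 251 with a fold of 1.2. The fall to 7 with quantile normalization, cyclic loess and the robust prior came from the 5 equal small nucleolar RNA copies, which passed at a limma unadjusted p = 0.0434, and it moved the split of higher against lower calls from 5 and 7 to 5 and 2. Leaving out arrays gave 7 to 55, with 55 without 3α-THP replicate 1, 39 without replicate number 1, 22 without number 2 and 19 without number 3.

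The 485 clusters at an unadjusted p under 0.05 became 1064 with the replicate block, 844 with it as a random term, 1212 with the block on the 3α-THP and F arrays alone, 138 without dim clusters and 1057 with all clusters, and 270 (without replicate number 3) to 942 (without 3α-THP replicate 1) when arrays were left out. The 20097 clusters with an interval inside a fold of 1.5 became 11429 without dim clusters, where fewer were tested, and 17951 to 20254 without arrays. The fixed block changed the call of CRACR2A and HMMR and of no other named gene, and the random term that of CRACR2A and not of HMMR. KRTAP5-5 missed the fold without replicate number 2, GH1 also missed without number 3, and DOC2B also missed without number 2, under the methods' analysis of variance and with array weights.

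Chosen after seeing the data, the median of G2 and M phase genes was -0.18 in pair 1 alone and -0.13 to 0.62 without arrays. That of S phase genes was -0.11 in pair 1 alone and -0.16 to 0.29 without arrays, negative as -0.16, -0.023 and -0.004. That of cholesterol genes was 0.021 in pair 3 alone and -0.26 to -0.05 without arrays, and that of keratin-associated proteins -0.024 in pair 1 alone and 0.03 to 0.11 without arrays. The causes were not tested. Of the 12 clusters, 6 lie below a level of 6, against 42.9% of all clusters. With equal clusters counted once 8 passed, the same 6 among them. Signal over background was not measured here.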
